A study of Mus musculus with 7 samples.

Results

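The genes described here are those of interleukin-2 (IL-2) and of the receptor chains through which it acts: Il2, Il2ra, Il2rb, Il2rg and Il15ra. They were chosen by name, and a gene was measured through the probe sets, the groups of short probes on the array that together report 1 transcript, whose annotation names that gene and no other. Of the 5 genes, 4 had such probe sets, 7 in all, among 18193 genes and 45037 probe sets on the array. No probe set of the annotation used here names Il2rg, so its level was not analysed here. One further probe set names Il2 together with Ntan1, lay between 8.28 and 8.84 on the log2 scale in every array, and was left out by the same rule.

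Peripheral lymph nodes were the source of the CD4+ T cells on each array. The mice were male and 3 weeks old. Antibodies to B220, CD8, CD11b, CD11c and NK1.1 removed other cells, and a flow sort took those with both CD3 and CD4 on their surface. The Sf.Il2-/- group (3 arrays) is the scurfy mutant that also carries the IL-2 null allele of strain B6.129P2-Il2tm1Hor/J. The scurfy group (Sf, 3 arrays) is strain B6.Cg-Foxp3sf/J, which carries a mutation of Foxp3 and not the null allele. The C57BL/6 group (B6) has neither and is 1 array, from 2 mice pooled, so it has no spread of its own. Both mutant groups thus carry the Foxp3 mutation, and the alleles are not limited to T cells. In bulk RNA, fewer cells of a type and less RNA per cell cannot be told apart.

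IL-2 is made mainly by activated CD4 T cells and acts on T cells that display its receptor. The beta chain (Il2rb) and the common gamma chain (Il2rg) carry the signal through the kinases JAK1 and JAK3 to the transcription factor STAT5, and the alpha chain (Il2ra, also called CD25) adds no signal of its own but lets the complex bind IL-2 tightly. STAT5 in turn raises transcription of Il2ra, so the alpha chain is both a part of the receptor and a target of its signal. IL-15 uses the same beta and gamma chains and has an alpha chain of its own, Il15ra, which resembles Il2ra and mostly presents IL-15 to neighbouring cells. Regulatory T cells, which depend on Foxp3, carry much CD25 and make little IL-2.

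Of the 4 members tested, the alpha chain was the one called. Il2ra fell 16.8-fold in the arrays labelled Sf.Il2-/- against Sf, and 8.52-fold against B6, at its brightest probe set, which reads near the floor in the arrays labelled Sf.Il2-/-, so these sizes are not exact. Its second probe set, of nearly equal brightness, was 4.56-fold and 3.20-fold lower and was called in neither comparison (limma adjusted p = 0.0756 and 0.137). Those adjusted p come from a separate fit over 24435 probe sets, not from the fit over genes. Il2rb and Il15ra were not called in any comparison. The signal of Il2 itself was not called either, and each array labelled Sf.Il2-/- read above B6, Sf 1 and Sf 2. A gene is called where its Benjamini-Hochberg adjusted p is under 0.05 in limma, a linear model whose spread is moderated across genes, fitted to log2(intensity + 1) over 11460 genes.

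Of the 4 members tested, 1 was called in Sf.Il2-/- against Sf, where 0.279% of all genes were called (0.0436% higher and 0.236% lower). In Sf.Il2-/- against B6, 1 of 4 was called, against 2.69% of all genes (1.49% higher and 1.2% lower). In Sf against B6, 0 of 4 were called by limma, and 0 had an unadjusted p under 0.05, against 2.47% of all genes called (1.31% higher and 1.16% lower). The called member is Il2ra in both cases, and these comparisons share the arrays labelled Sf.Il2-/-. Genes at an unadjusted limma p under 0.05 numbered 908 of 11460 in Sf.Il2-/- against Sf, 2129 in Sf.Il2-/- against B6 and 2584 in Sf against B6. How many of all genes separate the mutant groups without overlap was not counted. With the replicate number as a block no member's call changed, while the calls over all genes became 60 in place of 32 in Sf.Il2-/- against Sf, 1212 in place of 308 in Sf.Il2-/- against B6, and 1880 in place of 283 in Sf against B6. The block places B6 with Sf.Il2-/- 1 and Sf 1 by its number alone, and its calls against B6 depend on that. The split of calls depends on scaling: 171 higher and 137 lower genes in Sf.Il2-/- against B6 became 484 and 239 after quantile normalization, and 150 and 133 in Sf against B6 became 391 and 163.

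The median intensity of an array was 29.3 to 32.4 and the upper quartile 110 to 145; precision is limited by how few arrays there are. All CD4 T cell markers with a probe set, 6 of 8, lay between 9.44 and 11.85 on the log2 scale in every array. Their summed intensity was 12962 to 14687 in the arrays labelled Sf.Il2-/-, 8209 to 11323 in Sf and 15877 in B6, so the mutant groups do not overlap. Of these 6, 0 were called by limma in any comparison, and 5 had an unadjusted p under 0.05 in Sf.Il2-/- against Sf (median difference 0.55, against 0.08 for all genes) and 5 in Sf against B6 (median -0.79, against -0.25), with 0 in Sf.Il2-/- against B6. Of all 11460 genes, 908, 2584 and 2129 had such a p in these comparisons, in the same order. Divided by the correlation of dim probe sets, and not by the labels, Sf.Il2-/- 1, Sf.Il2-/- 2, Sf 1 and Sf 2 form array set 1, and Sf.Il2-/- 3, Sf 3 and B6 form array set 2. The lowest correlation within sets was 0.553 and the highest between sets 0.554, so the division is uncertain. Summed over 7 neutrophil markers the intensity was 639 in Sf.Il2-/- 2 and 441 in Sf 1, against 217 to 304 in the other arrays. Of the measured markers, those under 5 on the log2 scale in every array were 2 of 5 for B cells (Ms4a1 and Cd79a), 3 of 9 for dendritic cells (Flt3, Xcr1 and Siglech), 1 of 7 for macrophages (Itgam), 1 of 7 for neutrophils (Elane), and 3 of 5 for basophils and mast cells (Mcpt8, Fcer1a and Ms4a2). Others were brighter: Ighm of B cells read 9.69 to 11.53, Csf1r of macrophages 8.36 to 9.49, Fcgr1 of macrophages 6.02 to 6.74 and Ngp of neutrophils 6.50 to 7.13, and S100a8 of neutrophils reached 7.63 in Sf.Il2-/- 2. Summed B cell markers reached 1906 to 2158 in the arrays labelled Sf.Il2-/-, 961 to 1760 in Sf and 3057 in B6. Most of that sum was Ighm in every array, so it follows 1 gene. The dendritic cell sum was 1104 to 1569 in the arrays labelled Sf.Il2-/-, 1051 to 1498 in Sf and 233 in B6. Most of it in the mutant arrays was Cd74, the invariant chain gene, at 9.39 to 10.08 on the log2 scale, against 6.37 in B6. Cd74 was the 1 called gene of that list, higher in both mutants than in B6. In these comparisons 1.49% (Sf.Il2-/-) and 1.31% (Sf) of all genes were higher. Macrophage markers summed to 583 to 1094 in the arrays labelled Sf.Il2-/-, 568 to 885 in Sf and 850 in B6, most of it Csf1r. CD8 T cell markers summed to 151 to 201 in the arrays labelled Sf.Il2-/-, 146 to 201 in Sf and 312 in B6. Basophil and mast cell markers summed to 131 to 150 in the arrays labelled Sf.Il2-/-, 117 to 145 in Sf and 69.3 in B6. Kit was their 1 called gene, higher in Sf.Il2-/- than in B6, a comparison with 1.49% of all genes higher. The part of these cells in the results was not tested.

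Il2ra lies on chromosome 2, chr2:11642792-11693194 in GRCm38.p6, and Il15ra follows it after a gap of 11978 bases (chr2:11705172-11733985). Il2 lies on chromosome 3 (chr3:37120713-37125954) and Il2rb on chromosome 15 (chr15:78479256-78511621). The 250 bases before the start of Il2ra, the called gene, and of Il2, the ligand gene, are shown from RefSeq for GRCm38.p6, 5′ to 3′ on the strand of the gene. The capitals mark matches to motifs of factors known to act in T cells.
Il2ra, chr2:11642542-11642791, plus strand: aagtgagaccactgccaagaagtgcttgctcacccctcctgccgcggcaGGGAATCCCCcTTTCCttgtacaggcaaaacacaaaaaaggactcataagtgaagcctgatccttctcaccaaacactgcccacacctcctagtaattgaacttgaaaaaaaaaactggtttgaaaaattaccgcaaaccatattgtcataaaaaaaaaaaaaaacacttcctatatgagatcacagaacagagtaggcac
Il2, chr3:37125955-37126204, minus strand: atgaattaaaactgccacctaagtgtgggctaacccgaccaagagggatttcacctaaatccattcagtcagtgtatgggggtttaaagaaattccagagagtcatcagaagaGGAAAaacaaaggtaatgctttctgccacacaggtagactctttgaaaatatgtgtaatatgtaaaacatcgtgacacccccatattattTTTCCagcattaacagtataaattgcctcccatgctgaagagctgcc

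The motifs, searched on both strands, were TTCNNNGAA for STAT factors, GGGA, any 4 bases and CC for NF-kappaB, TGANTCA for AP-1 and GGAAA for NFAT. In the Il2ra window NF-kappaB had 1 match, 192 to 201 bases before the start, and NFAT had 1, on the other strand; the pair do not overlap. The Il2 window held 2 NFAT matches, 1 on each strand. Neither window held the STAT or the AP-1 letters, which says nothing of sites elsewhere. Among 32536 windows of that length before annotated starts, 17.7% held the NF-kappaB letters, 55.7% NFAT, 7.04% STAT and 6.73% AP-1.

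The ligand gene comes first, since it is the gene that the null allele targets. Its 1 probe set read 7.17, 8.20 and 7.74 in the arrays labelled Sf.Il2-/- 1, 2 and 3, against 5.39, 5.09 and 7.35 in Sf 1, 2 and 3 and 5.22 in B6. All arrays labelled Sf.Il2-/- except number 1 lay above every Sf array, and number 1 lay below Sf 3, so the mutant groups overlap. Sf 3 stood well above the other Sf arrays, which were close to B6. The sources used here do not say which exons the probes cover or which the null allele disrupts. A signal at this probe set therefore tests neither the genotype nor whether IL-2 protein was made.

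Il2 averaged 7.70 ± 0.52 in the arrays labelled Sf.Il2-/- and 5.94 ± 1.23 in Sf (log2, SD, n = 3 each). The difference, 1.76 ± 0.53 (log2, SE, n = 3 and 3), was not called (limma adjusted p = 0.402; 95% interval 0.58 to 2.94). Leaving out Sf 3 alone gave 2.46 with a limma adjusted p of 0.00566, so this array decides the call. The calls over all genes then became 872 of 11737 in place of 32, so the change is not particular to Il2. The difference was 2.45 within array set 1 (limma adjusted p = 0.00987), where 571 of 11460 genes were called. It was 0.39 within array set 2, where each mutant group has 1 array. Against B6 the arrays labelled Sf.Il2-/- differed by 2.48 ± 0.75 (SE, n = 3 and 1; limma adjusted p = 0.13), called with the array set as a block (3.20, limma adjusted p = 0.0305), without Sf 3 (2.48, limma adjusted p = 0.00442) and without Sf 1 and Sf.Il2-/- 2 (2.23, limma adjusted p = 0.0143). Sf differed from B6 by 0.72 ± 0.75 (limma adjusted p = 0.569), by 0.02 without Sf 3, and by 2.13 within array set 2, where Sf 3 is the Sf array.

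**Figure D1:**
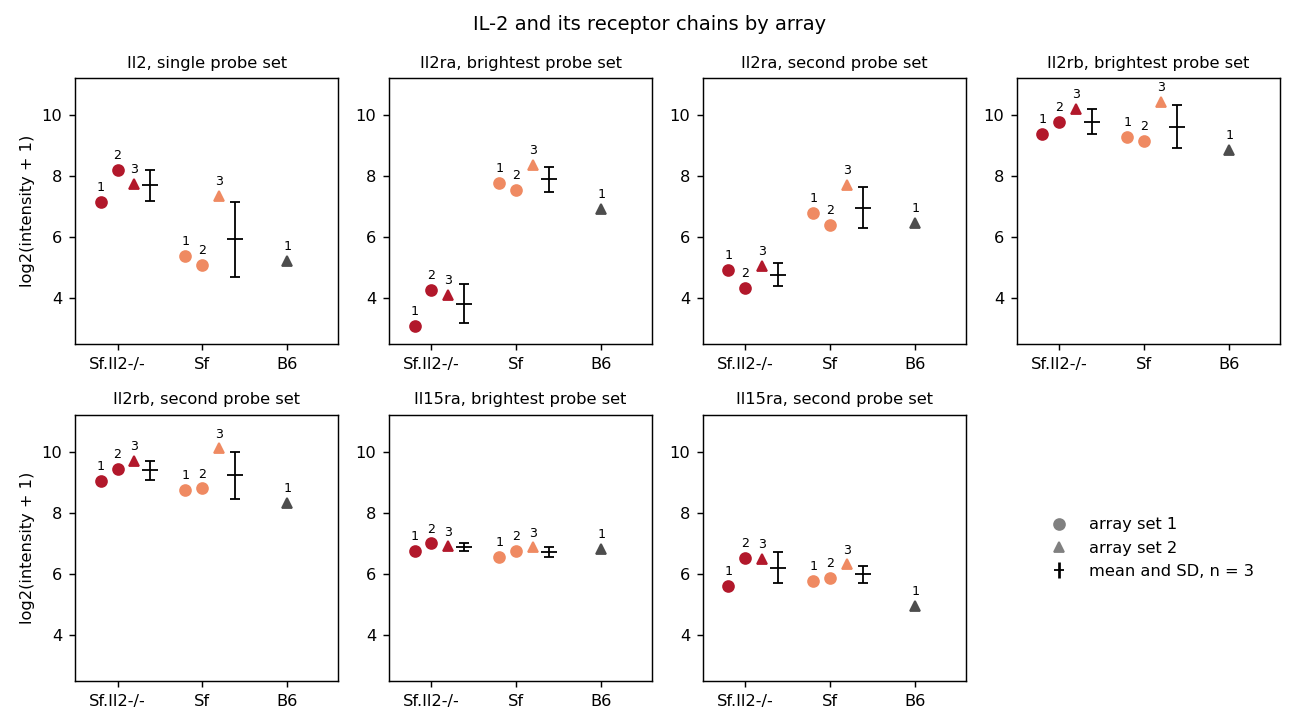
Each point is the log2(intensity + 1) of 1 array at 1 probe set, numbered by replicate, for Sf.Il2-/-, Sf and B6, with the mean and SD (n = 3) of the mutant groups beside them; circles are array set 1 and triangles array set 2. Il2ra lies lower in the arrays labelled Sf.Il2-/- than in all others at both probe sets, and Sf 3 is the highest Sf array at all 7 probe sets.

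Il2ra, the alpha chain, has 2 probe sets of nearly equal mean brightness (6.02 and 5.96). At the brighter one the intensity was 7.55, 18.5 and 16.2 in the arrays labelled Sf.Il2-/-, against 221, 186 and 327 in Sf and 120 in B6. On the log2 scale these are 3.10, 4.29 and 4.11, against 7.79, 7.55 and 8.36 in Sf and 6.92 in B6. The groups do not overlap, and the order of the levels was Sf, B6 and then the arrays labelled Sf.Il2-/-. How many of all genes separate in this way was not counted. At the second probe set the arrays labelled Sf.Il2-/- read 4.93, 4.34 and 5.07, against 6.79, 6.42 and 7.70 in Sf and 6.46 in B6. There too every array labelled Sf.Il2-/- lay below all others, while B6 fell within the Sf range.

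Il2ra fell by 4.07 ± 0.34 on the log2 scale (SE) in the arrays labelled Sf.Il2-/- against Sf, with 3 arrays each and a limma adjusted p of 0.00132. The 95% interval of the fall was 9.89-fold to 28.5-fold, and Il2ra ranked 4 of 11460 genes by p. Against B6 it fell by 3.09 ± 0.48 (n = 3 and 1; limma adjusted p = 0.014). The second probe set differed by -2.19 ± 0.34 (limma adjusted p = 0.0756 over 24435 probe sets) against Sf and by -1.68 ± 0.49 (limma adjusted p = 0.137) against B6, so neither difference was called there. At both probe sets 3 of 3 arrays labelled Sf.Il2-/- were lower, by 16.8-fold and 4.56-fold, a separation whose share over all genes was not counted. Since the brighter one reads near the floor in the arrays labelled Sf.Il2-/-, the size of the fall is not exact. Within array sets 1 and 2 the difference from Sf was -3.98 and -4.25, and without Sf 1 and Sf.Il2-/- 2, the arrays with the highest neutrophil sums, it was -4.35. Sf was 0.98 ± 0.48 above B6 (SE, n = 3 and 1), which was not called (limma adjusted p = 0.259; 95% interval -0.10 to 2.06), although 3 of 3 Sf arrays lay above B6 at the brighter probe set.

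Markers of regulatory T cells, which carry much CD25, were set beside this result. Of the 8 listed, 7 had a probe set and were tested. Foxp3 (-1.79, limma adjusted p = 0.0211) and Ikzf4 (-1.85, limma adjusted p = 0.045) fell in the arrays labelled Sf.Il2-/- against Sf, where 0.236% of all genes were lower. The other 5, among them Nrp1 (-1.09), Ctla4 (-0.48) and Ikzf2 (-0.39), were not called. The list median was -0.48, against 0.08 for all genes, and 0 of the 7 lay above the median of all genes. The summed intensity of the list was 3582 to 5495 in the arrays labelled Sf.Il2-/-, 5181 to 7251 in Sf and 3968 in B6, so the mutant groups overlap. Against B6, Foxp3 was the 1 called marker (-2.96, limma adjusted p = 0.00263), where 1.2% of all genes were lower. Their part in the fall of Il2ra was not tested.

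**Figure D2:**
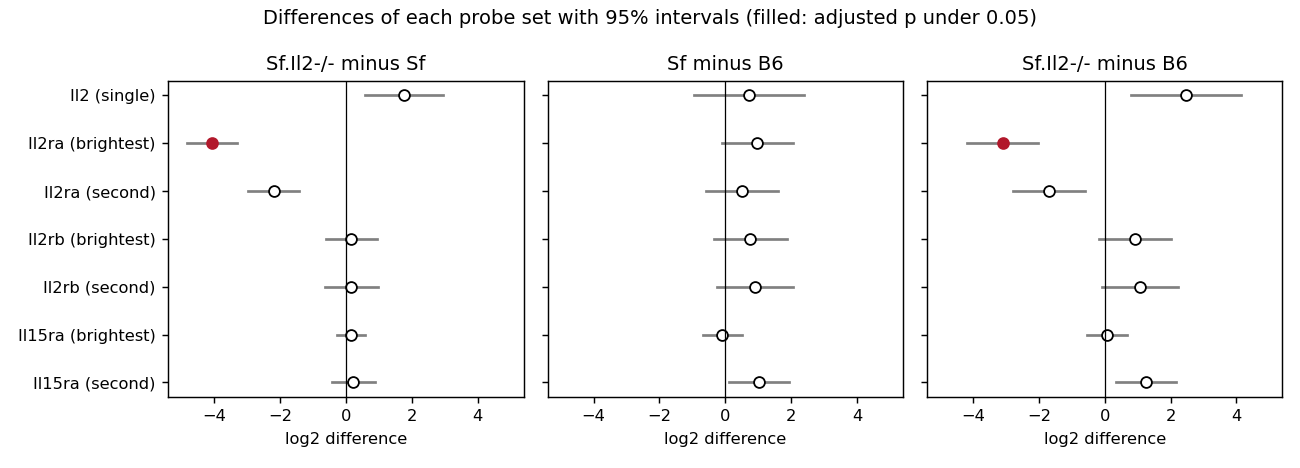
Log2 differences (points) with 95% intervals (bars) of each probe set in the 3 comparisons, from limma, filled where the adjusted p is under 0.05. Second probe sets come from a fit adjusted over 24435 probe sets, the others from the fit over 11460 genes. The brightest probe set of Il2ra is the filled one in both comparisons of Sf.Il2-/-, and none is filled for Sf against B6.

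The 3 genes whose values followed Il2ra most closely, by Pearson correlation over the 7 arrays among 2346 genes that varied, were Fbxo17 (r = 0.98), Socs2 (r = 0.97) and Ikzf4 (r = 0.96). Socs2, an inhibitor of cytokine receptor signalling, read 4.29, 4.32 and 4.05 in the arrays labelled Sf.Il2-/-, against 7.36, 7.50 and 7.25 in Sf and 6.32 in B6. Fbxo17, an F-box protein gene, read 4.94, 5.19 and 5.37 in the arrays labelled Sf.Il2-/-, against 6.43, 6.42 and 6.61 in Sf and 5.83 in B6. The order of the groups is that of Il2ra in both. These correlations describe 7 arrays in 3 groups, and the arrays share their group and their array set.

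**Figure D3:**
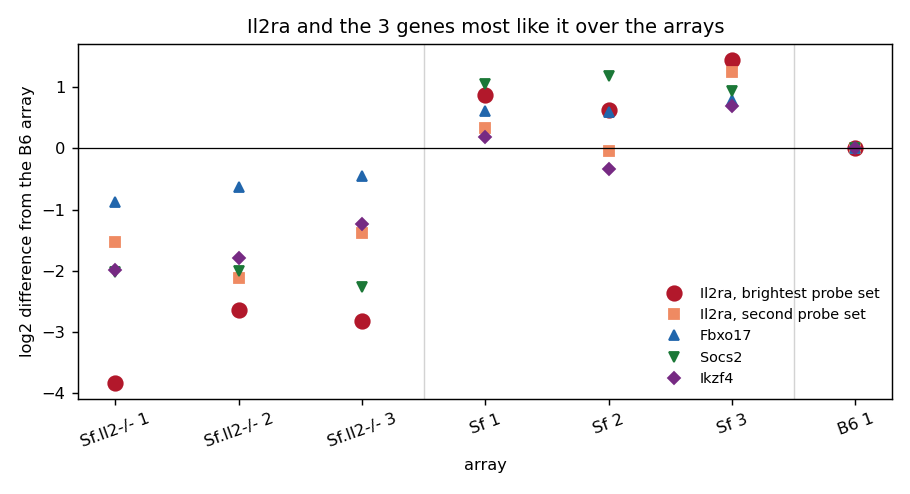
For each array, the log2 difference from the B6 array of Il2ra at both probe sets and of the 3 genes most correlated with it. The 5 profiles lie below B6 in the arrays labelled Sf.Il2-/-, and in Sf 1 and Sf 3 all 5 lie above it. The 3 genes were picked on these same arrays.

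None of the genes listed around Il2ra on chromosome 2 was called between the mutant groups. Il15ra, its nearest neighbour on one side, and Rbm17, on the other, differed by 0.16 and 0.22 in the arrays labelled Sf.Il2-/- against Sf (limma adjusted p = 0.922 and 0.887). Pfkfb3, Prkcq, Fbh1 and Ankrd16 differed by -0.15 to 0.36 (limma adjusted p of 0.74 or more). Near Il2, Il21, the gene of another cytokine that uses the common gamma chain, read 8.68, 8.11 and 8.62 in the arrays labelled Sf.Il2-/-, against 7.94, 7.97 and 8.03 in Sf and 5.36 in B6. Il21 rose by 3.11 ± 0.30 in the arrays labelled Sf.Il2-/- against B6 (limma adjusted p = 0.00172) and by 2.62 ± 0.30 in Sf against B6 (limma adjusted p = 0.00481), and was 0.49 apart between the mutant groups (limma adjusted p = 0.622). The other neighbours of Il2 with enough signal, 4932438A13Rik, Cetn4 and Bbs12, were not called in any comparison, and Adad1 and Bbs7 were too dim to be tested.

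Il2rb, the signalling beta chain shared by IL-2 and IL-15, was bright in all 7 arrays. Its brighter probe set read 9.39, 9.78 and 10.20 in the arrays labelled Sf.Il2-/-, against 9.30, 9.14 and 10.43 in Sf and 8.86 in B6. Both mutant groups lay above B6 and overlapped each other, with Sf 3 highest. The second probe set gave the same picture, at 9.06, 9.44 and 9.69 in the arrays labelled Sf.Il2-/-, 8.76, 8.80 and 10.11 in Sf and 8.32 in B6.

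Between the mutant groups Il2rb differed by 0.16 ± 0.35 (Sf.Il2-/- minus Sf, SE) on the log2 scale over 3 arrays each, with a limma adjusted p of 0.959 and a 95% interval of -0.62 to 0.94. This has no settled sign: it was -0.085 after quantile normalization, -0.04 without Sf.Il2-/- 3 and -0.077 without Sf 2, and 0.37 and -0.24 within array sets 1 and 2. The arrays labelled Sf.Il2-/- were 0.93 ± 0.49 above B6 (n = 3 and 1; limma adjusted p = 0.351) and Sf 0.76 ± 0.49 above B6 (limma adjusted p = 0.368), neither called. With the array set as a block these became 1.54 (limma adjusted p = 0.0226) and 1.37 (limma adjusted p = 0.0367), and within array set 2 they were 1.34 and 1.57, so the call depends on how the sets are treated.

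NK cells carry much of this chain, and 4 of 6 NK markers had a probe set. Ncr1 and Klra8 read under 5 in every array, while Klre1 read 6.28 to 6.79, and the summed intensity of the 4 was 557 to 1051 in the arrays labelled Sf.Il2-/-, 288 to 438 in Sf and 213 in B6. Most of that sum was Eomes, a transcription factor that activated T cells can also express, at 8.82, 9.66 and 9.90 in the arrays labelled Sf.Il2-/-, against 7.95, 7.29 and 8.46 in Sf and 6.94 in B6. In the arrays labelled Sf.Il2-/- it rose by 2.52 against B6 (limma adjusted p = 0.0346), where 1.49% of all genes were higher. The part of Eomes in the level of Il2rb was not tested. The genes most like Il2rb over the 7 arrays were Socs1 (r = 0.99), an inhibitor of JAK kinases, Olfr1264 (r = 0.97), an olfactory receptor gene, and Hk2 (r = 0.97), a hexokinase gene. Socs1 read 7.31, 7.78 and 8.13 in the arrays labelled Sf.Il2-/-, against 7.40, 7.27 and 8.33 in Sf and 6.84 in B6, and like Il2rb it was highest in Sf 3 and lowest in B6.

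Il15ra is the alpha chain of the IL-15 receptor. At its brighter probe set the intensity was 106, 127 and 119 in the arrays labelled Sf.Il2-/-, against 92.8, 107 and 116 in Sf and 112 in B6. The 3 groups overlap, and the difference between the mutant groups was 0.16 ± 0.19 on the log2 scale (SE; 95% interval -0.27 to 0.58; limma adjusted p = 0.922). Whether this differs from the change of Il2ra was not tested. On the log2 scale the second probe set read 5.62, 6.52 and 6.49 in the arrays labelled Sf.Il2-/-, against 5.77, 5.88 and 6.31 in Sf and 4.96 in B6. Its tests, given next, were adjusted over 24435 probe sets and not over genes.

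At that second probe set all 6 mutant arrays lay above B6, by 1.25 ± 0.41 for the arrays labelled Sf.Il2-/- (limma adjusted p = 0.174) and 1.03 ± 0.41 for Sf (limma adjusted p = 0.227), neither called. At the brighter probe set the same differences were 0.07 ± 0.27 and -0.09 ± 0.27 (limma adjusted p = 0.924 and 0.851), so the probe sets disagree on Sf against B6. Quantile normalization also turned the difference of Sf from B6 at the brighter probe set, to 0.080. The array annotation gives the probe sets different transcript accessions, and which isoforms each detects was not tested. The genes most like Il15ra were Gimap7 (r = 0.91), Trip6 (r = 0.91) and Nog (r = 0.91), and those most like Il2 were Lancl3, Tg and Dcun1d4 (r = 0.99, 0.99 and 0.98). Of 2346 genes ranked, 3 had an r over 0.9 with Il15ra and 63 with Il2.

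Beside the members, the receptor's signalling pathway was read from gene lists. Of 20 genes listed, among them Jak1, Jak3, Stat5a and Stat5b, 15 were tested, and 0 were called by limma in Sf.Il2-/- against Sf. An unadjusted p under 0.05 was reached by 2 of them, against 908 of all 11460 genes. Their median difference was 0.33, against 0.08 for all genes. It was -0.35 in Sf.Il2-/- against B6 and -0.75 in Sf against B6, where the medians of all genes were -0.14 and -0.25. Gab2, an adaptor that links the receptor to downstream kinases, was the member with the lowest p, at 1.37 ± 0.30 (limma adjusted p = 0.175). It read 7.09, 7.14 and 7.15 in the arrays labelled Sf.Il2-/-, against 5.57, 5.25 and 6.45 in Sf and 2.58 in B6. Gab2 rose against B6 in both mutants, by 4.54 ± 0.43 in Sf.Il2-/- (limma adjusted p = 0.00172) and by 3.17 ± 0.43 in Sf (limma adjusted p = 0.00816), sizes that are not exact because B6 is near the floor. Of all genes, 1.49% and 1.31% were higher in these comparisons. Jak1, a kinase bound to the beta chain, fell by 1.27 ± 0.25 in Sf against B6 (limma adjusted p = 0.0313), where 1.16% of all genes were lower. It was the other call of this list in Sf.

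All 12 listed genes that dampen cytokine signalling were tested. Of these, Socs2 and Cish, both known STAT5 targets, fell in Sf.Il2-/- against Sf, with differences of -3.15 ± 0.20 (limma adjusted p = 0.000517) and -1.82 ± 0.25 (limma adjusted p = 0.0277), and 10 were not called, where 0.236% of all genes were lower, with a list median of 0.12 against 0.08 for all genes. Socs2 reads near the floor in the arrays labelled Sf.Il2-/-, as Il2ra does, so the sizes of its falls are not exact. Cish read 8.98, 8.06 and 8.33 in the arrays labelled Sf.Il2-/-, against 10.23, 10.25 and 10.37 in Sf and 9.11 in B6. Socs1 and Socs3, of the same family, were at 0.08 and 0.19, neither called. Against B6 Socs2 fell by 2.10 ± 0.29 in Sf.Il2-/- (limma adjusted p = 0.00973), the 1 call of this list there, where 1.2% of all genes were lower. In Sf against B6 this list had 0 calls by limma, with 4 members at an unadjusted p under 0.05, against 2584 of all 11460 genes. Socs2 was 1.05 ± 0.29 higher there (limma adjusted p = 0.0889).

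Genes known to be raised by IL-2 and STAT5 gave 28 tested of 30, with 3 lower (Socs2, Ikzf4 and Cish), 0 higher and 25 not called in Sf.Il2-/- against Sf, where 0.236% of all genes were lower. The list median was -0.21, against 0.08 for all genes. Ikzf4 is also counted among the regulatory T cell markers, and Socs2 and Cish among the genes that dampen cytokine signalling. Among the 25, the survival gene Bcl2 was at -0.39 and the kinase gene Pim1 at -0.47, while Prf1 was at 1.42 and Pim2 at 0.55. Of the 28 tested, 8 lay above the median of all genes. In Sf against B6, 4 rose: Bhlhe40 by 4.41, the granzyme gene Gzmb by 3.07, Nfil3 by 3.00 and the cytokine gene Lif by 2.10 (limma adjusted p = 0.00166, 0.0153, 0.0407 and 0.0386), where 1.31% of all genes were higher, with a list median of 0.38 against -0.25. In Sf.Il2-/- against B6, Bhlhe40 (4.13), Gzmb (3.68) and Tnfrsf4 (1.69), the gene of the costimulatory receptor OX40, rose, and Socs2 and the cyclin gene Ccnd2 (-1.63) fell (limma adjusted p = 0.00172, 0.00767, 0.0343, 0.00973 and 0.0352), where 1.49% of all genes were higher and 1.2% lower, with a list median of 0.33 against -0.14.

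Of 9 genes that IL-2 is known to lower, 7 were tested and 0 were called by limma in Sf.Il2-/- against Sf, with a list median of 0.09 against 0.08 for all genes. An unadjusted p under 0.05 was reached by 2 of them, against 908 of all 11460 genes. Cxcr5, the homing receptor of follicular helper T cells, was the nearest, at 2.02 ± 0.39 (limma adjusted p = 0.099). Its values were 9.52, 9.94 and 9.52 in the arrays labelled Sf.Il2-/-, against 7.65, 6.77 and 8.52 in Sf and 6.70 in B6. Against B6 Cxcr5 rose by 2.96 in Sf.Il2-/- (limma adjusted p = 0.0261), while Il6ra (-2.61) and Ccr7 (-1.74) fell (limma adjusted p = 0.00471 and 0.0499), where 1.49% of all genes were higher and 1.2% lower. In Sf against B6, Il6ra (-2.70) and Il6st (-1.92), the 2 chains of the interleukin-6 receptor, fell (limma adjusted p = 0.00481 and 0.0462), where 1.16% of all genes were lower. The list median was -0.74 in Sf.Il2-/- against B6 and -0.78 in Sf against B6, where the medians of all genes were -0.14 and -0.25. An unadjusted limma p under 0.05 was reached by 6 and 5 of the 7, against 2129 and 2584 of all 11460 genes.

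**Figure D4:**
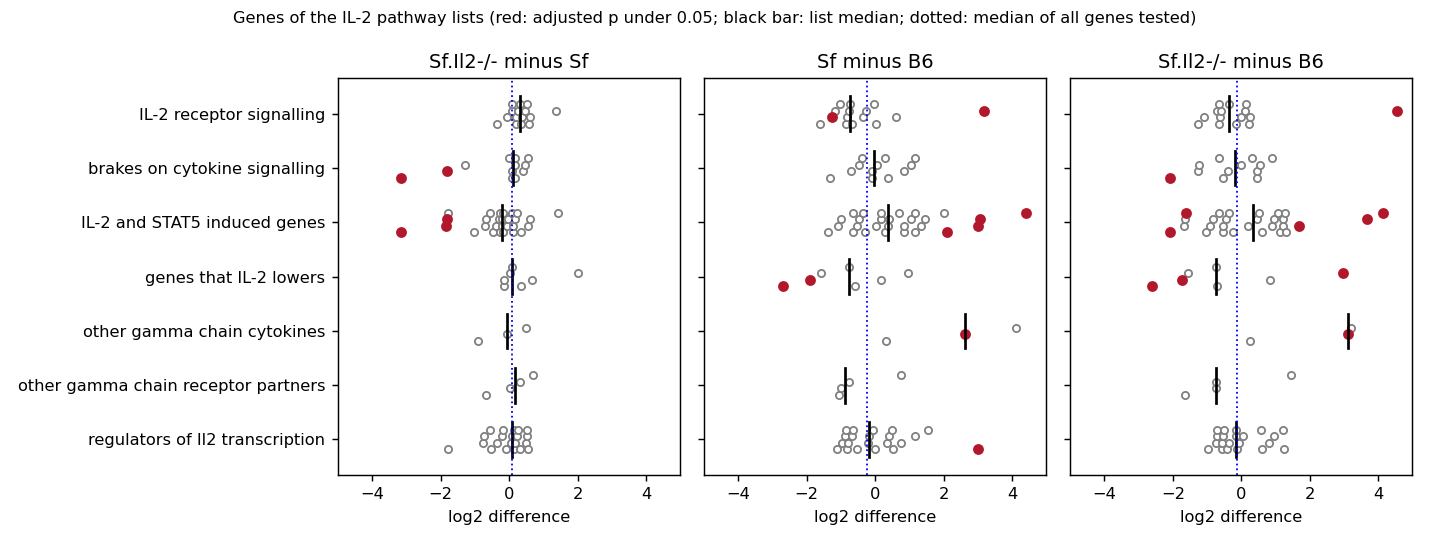
Log2 differences of each tested gene of the 7 pathway lists in the 3 comparisons (points; red where the limma adjusted p is under 0.05), with the list median (black bar) and the median of all genes tested (dotted line). In Sf.Il2-/- against Sf the red points are Socs2, Cish and Ikzf4, all to the left.

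Among the other cytokines that use the common gamma chain, Il4, Il7 and Il21 were tested, and Il9 and Il15 were too dim in every group. Between the mutant groups 0 of 3 were called by limma (1 had an unadjusted p under 0.05). Against B6 Il21 was the 1 called in each mutant, as given above, where 1.49% (Sf.Il2-/-) and 1.31% (Sf) of all genes were higher. The receptor partners Il4ra, Il7r, Il9r and Il21r were all tested, with 0 called by limma in any of the 3 comparisons. Those at an unadjusted limma p under 0.05 were 0 in Sf.Il2-/- against Sf, 3 in Sf.Il2-/- against B6 and 1 in Sf against B6. Of all 11460 genes, 908, 2129 and 2584 had such a p in these comparisons, in the same order. Il4ra was at -0.67 ± 0.40 in Sf.Il2-/- against Sf (limma adjusted p = 0.791) and at -1.66 ± 0.57 against B6 (limma adjusted p = 0.175), and Il7r at -0.78 ± 0.31 in Sf against B6 (limma adjusted p = 0.183).

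Regulators of Il2 transcription, such as the NFAT, AP-1 and NF-kappaB genes, gave 21 tested of 23. In Sf.Il2-/- against Sf, where the Il2 signal itself was not called, 0 were called by limma, with a list median of 0.10 against 0.08 for all genes. An unadjusted p under 0.05 was reached by 4 of the regulators, against 908 of all 11460 genes. Nfil3, a transcription factor that can act on cytokine genes, had the lowest p, at -1.78 ± 0.44 (limma adjusted p = 0.261). It read 6.54, 4.81 and 6.47 in the arrays labelled Sf.Il2-/-, against 8.01, 7.97 and 7.19 in Sf and 4.72 in B6. Nfil3 was the 1 regulator called in Sf against B6, where 1.31% of all genes were higher. In Sf.Il2-/- against B6 0 were called by limma, and 3 had an unadjusted p under 0.05, against 2129 of all 11460 genes. Ikzf3, an Ikaros family repressor, was at 1.24 ± 0.37 there (limma adjusted p = 0.123).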

How the data were processed

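The deposited table gives 1 linear intensity per probe set and array, made by the authors. The submitters' processing notes name GCRMA and GCOS, with no role, order or version. GEO's platform annotation named genes (34945 probe sets name 1 gene, 932 several and 9160 none), and 34741 were brought to current symbols of GRCm38.p6 through Entrez numbers. No probe set names Il2rg there. Promoters are from RefSeq for GRCm38.p6, where Il2, Il2ra and Il15ra of the measured members were found.

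Values are log2(intensity + 1). Each gene is its brightest probe set, tested where the highest group mean reached 5 (11460 genes). One limma 3.58.1 fit in R 4.3.3 (lmFit, eBayes with an intensity trend) covered the 7 arrays. It left 4 residual degrees of freedom, 9.57 after moderation. The lone B6 array is taken to vary as the mutant arrays do. Replicates are called biological in the labels. At most 0.535% of values were identical in a pair of arrays. The fit was run on simulated data with independent noise, which checks the code and not the effect of deviations shared between arrays.

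Same-numbered mutant arrays deviated together (correlations 0.301, 0.211 and 0.505, each above 0.1), so the numbers may pair the arrays. The main fit has no term for such a pairing. The possible pairing comes from the data, since the labels state none, and Sf.Il2-/- 1 correlated slightly better with Sf 2 (0.333). The replicate number was used as a block in an alternative only.

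Members, the 7 pathway lists, the 9 marker lists and the tests were chosen with earlier results of these data known. Named are all members, up to 4 called genes per pathway list and comparison or else the lowest p, the 3 genes most correlated with each member (SD of at least 0.5), and the 3 nearest genes on each side of Il2 and Il2ra. Socs1 and Socs3 as list members, Bcl2, Pim1, Pim2, Prf1, Ccnd2 and the marker genes were named after their values were seen. Some lists share genes, such as Socs2, Cish, Nfil3, Il4ra and Ikzf4. Plots were made in matplotlib 3.10.9 under Python 3.11.15.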

Additional observations from a re-analysis of the deposited data

How the results depend on the processing

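Il2ra was called in 19 of 21 alternatives in Sf.Il2-/- against Sf and in 17 of 19 against B6. In both comparisons the exceptions are the second probe set, an alternative chosen after seeing the data (-2.19 against Sf and -1.68 against B6, adjusted over 24435 probe sets), and array set 2 alone, which allows no test. Leaving out 1 array at a time gave -4.30 to -3.70 and -3.32 to -2.72. The replicate block, which puts B6 with Sf.Il2-/- 1 and Sf 1, changed no member's call. It gave 60 calls over all genes in Sf.Il2-/- against Sf, 1880 in Sf against B6 and 1212 in Sf.Il2-/- against B6, and turned Il15ra to -0.086 in the last. With the array set as a block these counts were 74, 605 and 721, Il2 in Sf.Il2-/- against B6 was 3.20, and Il2rb was 1.37 in Sf and 1.54 in Sf.Il2-/- against B6, all 3 newly called. Without a filter on dim genes the counts were 11, 161 and 138. Quantile normalization gave 554 calls in Sf and 723 in Sf.Il2-/- against B6, moved the median of all genes to 0.02 in place of -0.25 and to 0.06 in place of -0.14, and turned Il2rb to -0.085 in Sf.Il2-/- against Sf and Il15ra to 0.080 in Sf against B6. Averaging the probe sets of each gene gave 188 calls in Sf against B6 and turned Il15ra to 0.47, and its second probe set to 1.03. Within array set 1, Sf.Il2-/- against Sf gave 571 calls and 2.45 for Il2, newly called. Within array set 2, Il2 was 0.39 there, and Il2, Il2rb and Il15ra were 2.13, 1.57 and 0.057 in Sf against B6. Without Sf 1 and Sf.Il2-/- 2, Il2 was 2.23 in Sf.Il2-/- against B6, newly called. Leaving out 1 array at a time gave 8 to 872 calls in Sf.Il2-/- against Sf, 116 to 3523 in Sf against B6 and 129 to 1541 in Sf.Il2-/- against B6, each highest without Sf 3. It gave 1.33 to 2.46 for Il2 and -0.077 to 0.57 for Il2rb in Sf.Il2-/- against Sf, with Il2rb at -0.04 without Sf.Il2-/- 3, and 2.23 to 2.75 for Il2 in Sf.Il2-/- against B6. The causes were not tested.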
